A study of Sus scrofa with 16 samples.

Results

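The 6 genes described here are IRF1, GBP1, GBP2, UBD, SAMHD1 and FAM26F, genes that interferons, interferon-gamma among them, are known to induce. They were taken from a porcine expression array by gene symbol and were reported by 9 of its 23999 probe sets, leaving out control probe sets. GBP1 had 3 probe sets, FAM26F had 2 and each of the other genes had 1. Of the 9 probe sets 8 passed a filter on dim signals (log2 above 5 on at least 4 of the 16 arrays), among 11538 that passed in all. The one that did not was the second FAM26F probe set, which lay more than 0.1 above the lowest value on the arrays (log2 2.14) on only 2 arrays and reached 2.87 at most. The genes had been chosen because an earlier look at these arrays found them lower with antibiotics, so differences between treated and control piglets are given below as a description, with no test.

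The arrays measured total RNA of the small intestine of preterm piglets. The piglets were Landrace x Large white x Duroc crosses delivered by caesarean section on gestation day 105. All received parenteral nutrition at first and infant formula afterwards, and tissue was taken on day 5. One group received ampicillin, gentamycin and metronidazol by mouth and by intramuscular injection, and the control group received saline in their place. A proximal and a distal segment were sampled, giving 4 groups of 4 arrays: antibiotics distal, control distal, antibiotics proximal and control proximal. The sample names carry a number, taken here as that of the piglet. By it the arrays came from 9 piglets of the study's 24, and 7 of these (4 control, 3 antibiotics) gave both segments. The 24 piglets came from 2 sows, and which sow bore which of the 9 piglets is not given in the sources used here. Arrays are named below by that number.

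Interferon-gamma is secreted mainly by T cells, NK cells and innate lymphoid cells, and binds a receptor made of IFNGR1 and IFNGR2 chains. Signalling through the kinases JAK1 and JAK2 then switches on a first set of genes, among them IRF1, itself a transcription factor that drives many of the others. The products include large GTPases that attack intracellular microbes (the guanylate-binding proteins), parts of the machinery that loads peptides onto MHC molecules, and chemokines. In the intestine these genes are active in epithelial cells as well as in leukocytes, and type I interferons and TNF can also raise several of them.

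On each array 45.1% to 46.5% of the probe sets lay above log2 5, and arrays of one group correlated at r = 0.878 to 0.981. Enterocyte markers such as VIL1, FABP1 and FABP2 were bright in every group (mean log2 of 9 genes 12.78 to 14.47 over the arrays). FABP6, the ileal bile acid-binding protein, lay at 6.64 to 11.03 on distal arrays and at 2.28 to 3.49 on proximal arrays other than control 88, which lay at 7.40. The 5′ minus 3′ difference of control probe sets, a measure of RNA integrity, averaged -4.22 ± 0.54 in antibiotics distal, -3.98 ± 0.25 in control distal, -3.52 ± 0.37 in antibiotics proximal and -3.78 ± 0.65 in control proximal tissue (log2, SD, n = 4 each). All levels below are log2 values. In bulk tissue fewer cells of a type and less RNA per cell cannot be told apart.

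IRF1 was lowest in the distal intestine of treated piglets and lay close together in the other 3 groups. On the antibiotics distal arrays of piglets 85, 86, 87 and 95 it lay at 8.15, 7.85, 8.10 and 8.72. On the control distal arrays of piglets 83, 88, 89 and 92 it lay at 10.69, 8.94, 11.10 and 10.33. Every treated value was below every control value, with control 88 the nearest. The difference of the distal means (8.21 ± 0.37 against 10.27 ± 0.94, SD, n = 4 each) was -2.06 (SE 0.39), or 4.17-fold. In proximal tissue the groups overlapped: 9.29, 9.38, 9.97 and 9.51 in treated piglets 86, 87, 95 and 98, and 9.74, 9.45, 9.31 and 10.41 in controls 83, 88, 89 and 92. The proximal difference was -0.19 (SE 0.39).

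GBP1, a large interferon-induced GTPase that assembles on intracellular bacteria and vacuoles, was bright in both segments of control piglets. At the brightest of its probe sets the control distal arrays lay at 13.54, 11.19, 13.70 and 13.12. The antibiotics distal arrays lay at 7.62, 7.21, 8.37 and 7.81, all well below the lowest control. In proximal tissue the treated arrays lay at 10.49, 11.21, 12.03 and 11.25 and the controls at 10.73, 10.72, 12.03 and 11.66. The proximal groups overlapped almost completely and lay between the distal groups. The order of the means was therefore control distal (12.89 ± 1.16), control proximal (11.28 ± 0.66), antibiotics proximal (11.24 ± 0.63) and antibiotics distal (7.75 ± 0.48; SD, n = 4 each), and only the last stood apart from its neighbour beyond the spread of the arrays. Treated minus control piglets gave -5.13 (SE 0.50; 35.1-fold) in distal and -0.04 (SE 0.50) in proximal tissue.

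The other 2 probe sets of GBP1 ran in parallel. The middle one by brightness followed the brightest over the 16 arrays at r = 0.992. Its antibiotics distal arrays lay at 3.95, 3.75, 5.68 and 5.28 and its control distal arrays at 11.46, 9.04, 11.76 and 11.18. The difference was -6.19 (SE 0.60, 73.1-fold), while the proximal difference was 0.06 (SE 0.60). The treated distal mean (4.66) lay under the filter level, so this fold rests in part on dim signals. The dimmest followed the brightest at r = 0.904 and the middle one at r = 0.895. All 4 of its antibiotics distal arrays lay below the filter level (3.75 to 4.45), so its difference from controls (8.28, 5.10, 7.96 and 8.27) is given as a bound: the control mean was at least 5.29-fold over that level. In proximal tissue it lay at 5.58, 6.95, 7.77 and 6.92 in treated piglets and at 4.85, 6.36, 6.58 and 5.86 in controls, a difference of 0.89 (SE 0.63) with overlapping groups.

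GBP2, a second guanylate-binding protein, was likewise lowest in antibiotics distal tissue, with 1 control distal array standing apart. On the control distal arrays it lay at 12.20, 6.72, 10.40 and 11.51, where control 88 is the low value. On the antibiotics distal arrays it lay at 5.08, 4.21, 5.96 and 4.54, around the filter level and below control 88 too. In proximal tissue the treated arrays (9.53, 10.03, 9.15 and 10.27) and the controls (8.13, 9.58, 9.20 and 9.26) overlapped. The distal difference was -5.26 (SE 0.84; 38.3-fold) and the proximal difference 0.70 (SE 0.84). GBP1 and GBP2 lie next to each other in the RefSeq gene table of the pig. Guanylate-binding proteins are close paralogs, and whether a probe set also binds a paralog's transcript was not analysed here.

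**Figure D1:**
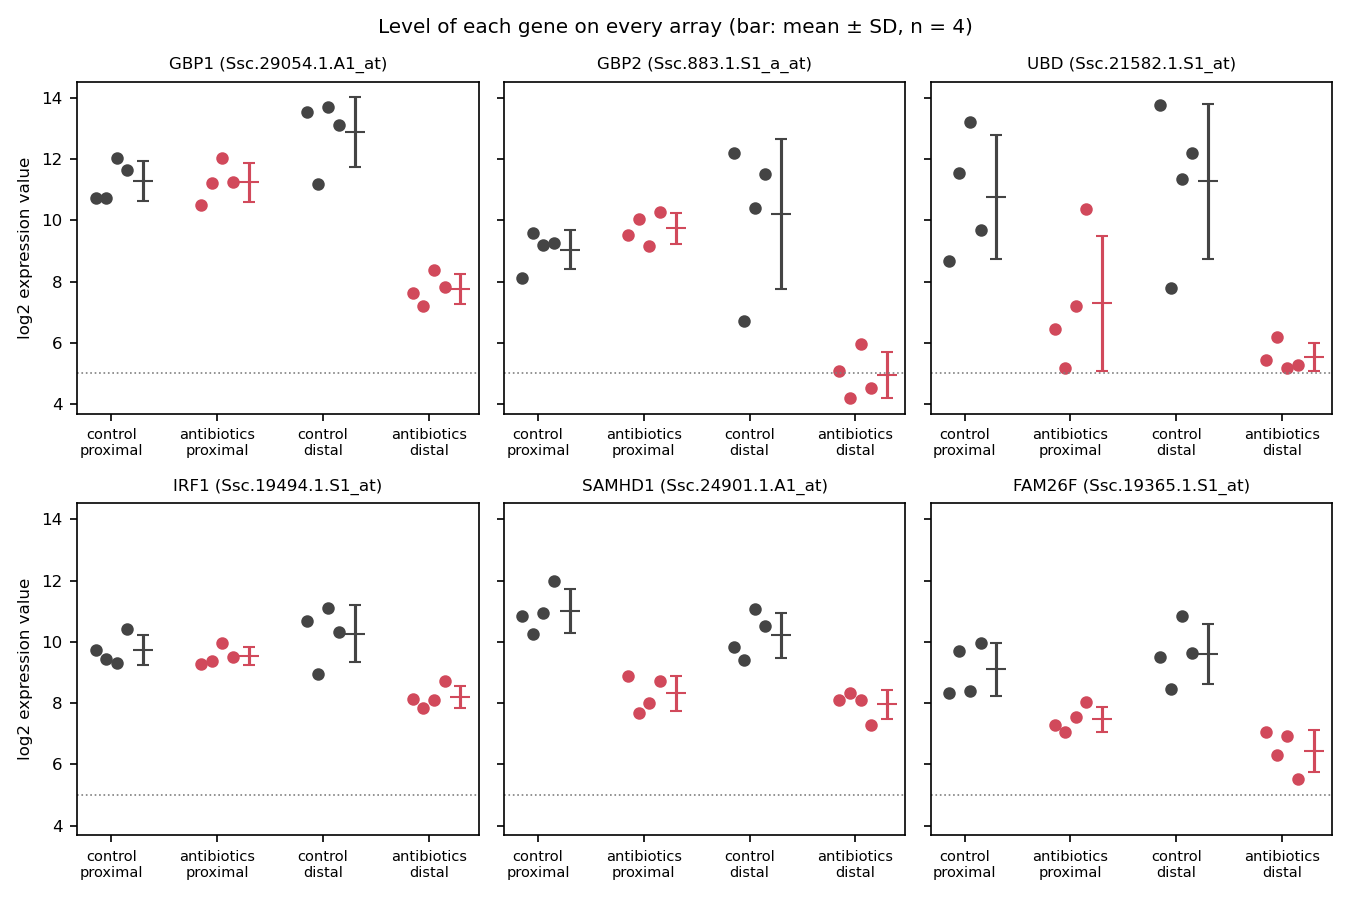
Level of each of the 6 genes on every array (vertical axis, log2 expression value; GBP1 and FAM26F by their brighter probe set), with control piglets in dark grey and antibiotics piglets in red, and the mean ± SD of the 4 arrays beside each group; the dotted line is the filter level of 5. GBP1, GBP2 and IRF1 are low in antibiotics distal tissue alone, while SAMHD1 and FAM26F are lower with antibiotics in both segments.

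UBD, a ubiquitin-like modifier that marks proteins for the proteasome, varied most between animals. On the control distal arrays it lay at 13.77, 7.80, 11.36 and 12.19 and on the antibiotics distal arrays at 5.43, 6.20, 5.19 and 5.29. The groups did not overlap, and control 88 was again the lowest control. In proximal tissue controls 83, 88, 89 and 92 lay at 8.66, 11.55, 13.22 and 9.67, and treated piglets 86, 87, 95 and 98 at 6.46, 5.17, 7.19 and 10.36. Treated piglet 98 reached into the range of the controls, and the other 3 lay below it. The differences were -5.76 (SE 1.23; 54.0-fold) in distal and -3.48 (SE 1.23; 11.2-fold) in proximal tissue.

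SAMHD1, a hydrolase of deoxynucleotides that restricts viruses, was lower with antibiotics in both segments. In distal tissue it lay at 8.11, 8.34, 8.11 and 7.28 in treated piglets and at 9.84, 9.40, 11.09 and 10.52 in controls. In proximal tissue it lay at 8.88, 7.67, 8.01 and 8.71 in treated piglets and at 10.84, 10.26, 10.94 and 12 in controls. All 8 treated arrays lay below all 8 control arrays, whatever the segment. The differences were -2.25 (SE 0.42; 4.77-fold) in distal and -2.70 (SE 0.42; 6.48-fold) in proximal tissue. The means of the 2 treated groups (7.96 ± 0.46 distal, 8.32 ± 0.57 proximal, SD, n = 4 each) did not differ beyond their spread.

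FAM26F, also named CALHM6, an interferon-induced membrane protein of the calcium homeostasis modulator family, was also lower on all 8 treated arrays than on all 8 controls. At its brighter probe set the distal values were 7.04, 6.29, 6.91 and 5.53 with antibiotics and 9.50, 8.46, 10.86 and 9.65 in controls. The proximal values were 7.29, 7.05, 7.53 and 8.02 with antibiotics and 8.33, 9.70, 8.40 and 9.98 in controls. The gap in proximal tissue was narrow, between treated piglet 98 and controls 83 and 89. The differences were -3.17 (SE 0.50; 9.01-fold) in distal and -1.63 (SE 0.50; 3.09-fold) in proximal tissue.

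Over the 8 probe sets the median treated minus control difference was -4.17 in distal (-4.15 with the dimmest GBP1 probe set at its bound) and -0.12 in proximal tissue, against 0.00 and -0.07 over all 11538 probe sets. All 4 treated arrays lay below all 4 controls for 8 of the 8 probe sets in distal and for 2 (SAMHD1 and FAM26F) in proximal tissue. Over the whole array this held for 6.31% of probe sets in distal and 1.74% in proximal tissue. By limma, 1.10% of all probe sets were lower with antibiotics past an adjusted p of 0.05 in distal and 0.0867% in proximal tissue. Since the 6 genes were chosen on these contrasts, their own counts describe the choice and no call is given for them.

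**Figure D2:**
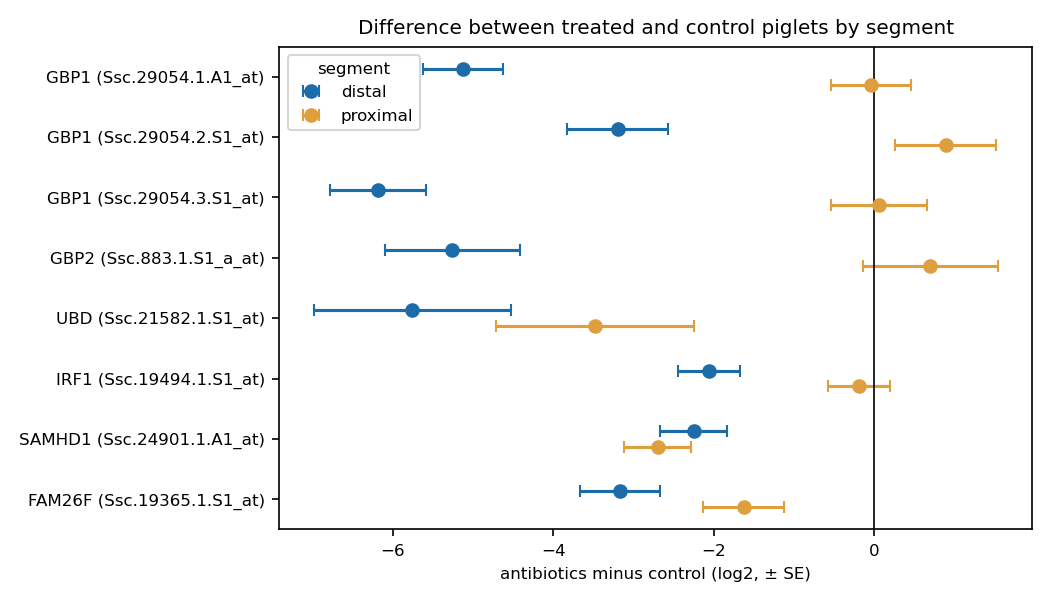
Antibiotics minus control difference of each probe set (horizontal axis, log2; points with bars of ± 1 SE from the limma fit) in distal tissue (blue) and proximal tissue (orange). The distal points lie between -6.19 and -2.06. That of the dimmest GBP1 probe set rests on treated arrays below the filter level. The treated distal means of the middle GBP1 probe set (4.66) and of GBP2 (4.95) lie under that level too. The proximal points of GBP1, GBP2 and IRF1 lie between -0.19 and 0.89 and those of UBD, SAMHD1 and FAM26F between -3.48 and -1.63.

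The difference between the distal and the proximal treatment difference, also a description, was farthest below 0 for the guanylate-binding proteins. It was -5.09 (SE 0.71) and -6.25 (SE 0.84) for the brightest and middle GBP1 probe sets and -5.96 (SE 1.19) for GBP2. For UBD it was -2.27 (SE 1.74), for IRF1 -1.87 (SE 0.55), for FAM26F -1.54 (SE 0.70) and for SAMHD1 0.44 (SE 0.59).

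The 7 piglets with both segments allow the same comparison within animals. For the brightest GBP1 probe set distal minus proximal was 2.81, 0.47, 1.67 and 1.46 in controls 83, 88, 89 and 92, and -3.28, -2.84 and -4.22 in treated piglets 86, 87 and 95. At the middle one it was 3.03, 0.25, 1.95 and 1.55 in controls and -4.63, -3.21 and -4.95 in treated piglets. At these 2 probe sets every control piglet had more signal distally and every treated piglet had more proximally, a pattern found for 0.329% of all probe sets. The dimmest GBP1 probe set departed from it: control 88 lay lower distally (-1.25), while the other controls gave 3.43, 1.38 and 2.40 and the treated piglets -1.13, -2.50 and -3.62.

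GBP2 was lower distally in all 3 treated piglets (-5.32, -4.07 and -4.61), whereas controls gave 4.07, -2.86, 1.2 and 2.25. For IRF1 the treated piglets gave -1.44, -1.29 and -1.25 and the controls 0.96, -0.51, 1.79 and -0.08. UBD ranged from -3.75 to 5.11 in controls (5.11, -3.75, -1.86 and 2.52), a wider span than its -0.25, 0.02 and -1.90 in treated piglets. Control 88 was the control with distal values farthest below proximal ones for GBP2, UBD, IRF1 and FAM26F (-1.24 for the last). SAMHD1 gave -1.0, -0.86, 0.15 and -1.48 in controls and -0.54, 0.44 and -0.73 in treated piglets, so that its groups overlapped. Without replication of the segments within an animal, no error can be given for a single piglet.

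**Figure D3:**
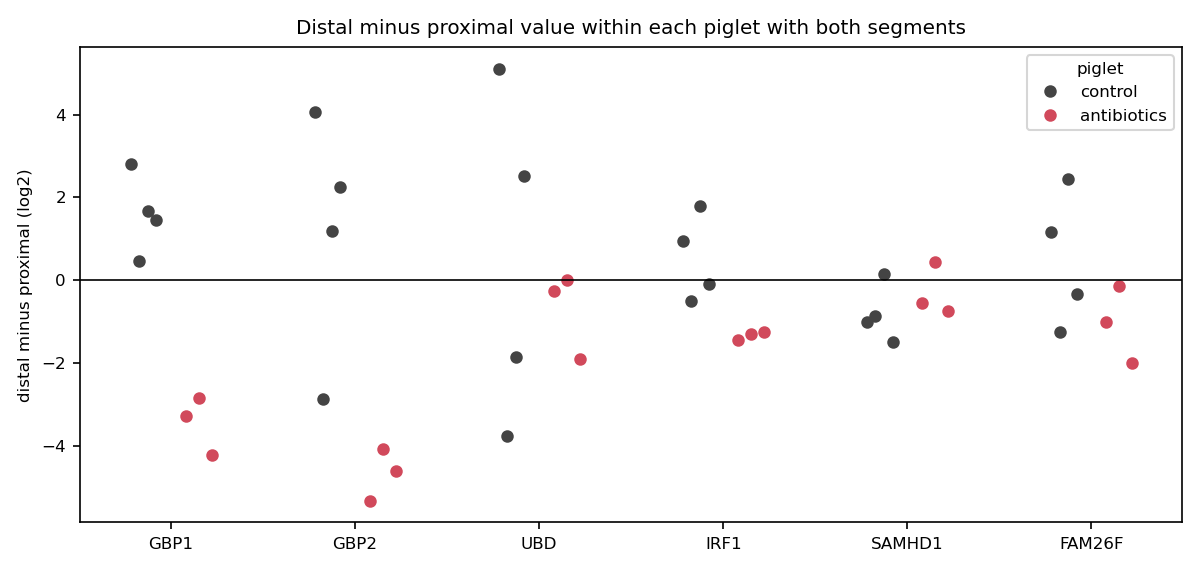
Distal minus proximal value within each of the 7 piglets that gave both segments (vertical axis, log2; 1 point per piglet, control in dark grey, antibiotics in red) for the 6 genes. GBP1 lies above 0 in all 4 controls and below it in all 3 treated piglets, while the SAMHD1 points of both groups lie between -1.48 and 0.44.

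The comparison that the choice of the genes did not use is distal against proximal tissue, averaged over both treatments. None of the 8 probe sets passed in it (limma, adjusted p under 0.05 over all probe sets). Of all probe sets 2.09% were lower and 3.43% higher in distal tissue. All 8 differences were below 0, with a median of -0.60 (0.02 over all probe sets). GBP2 differed by -1.82 (SE 0.60, adjusted p = 0.0945). The brightest, dimmest and middle GBP1 probe sets differed by -0.95 (SE 0.35, adjusted p = 0.154), -0.56 (SE 0.44, adjusted p = 0.595) and -1.43 (SE 0.42, adjusted p = 0.0616). The last passed in a fit where arrays of one animal form a random block (-1.41, adjusted p = 0.0323), and also without antibiotics distal array 87 (adjusted p = 0.0459). GBP2 passed without control distal array 83 or 88 (adjusted p = 0.0403 and 0.045). With an array left out the groups are unequal, and the comparison is then no longer independent of the treatment differences that chose the genes.

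None of the other genes passed in the same comparison. UBD differed by -0.63 (SE 0.87, adjusted p = 0.799), IRF1 by -0.40 (SE 0.27, adjusted p = 0.521), SAMHD1 by -0.58 (SE 0.30, adjusted p = 0.339) and FAM26F by -0.26 (SE 0.35, adjusted p = 0.791). For 7 of the 8 probe sets, all but that of SAMHD1, this average joins opposite differences. Their means were higher in distal than in proximal tissue in controls and lower under antibiotics. UBD, IRF1 and FAM26F differed by 0.51, 0.54 and 0.51 in controls and by -1.77, -1.33 and -1.03 under antibiotics. SAMHD1 was lower distally in both (-0.8 and -0.36). In controls distal tissue was higher than proximal by 1.60 for GBP1 (brightest probe set) and by 1.17 for GBP2, with arrays overlapping. Under antibiotics it was lower (-3.49 and -4.80, arrays not overlapping). Every antibiotics distal array lay below every antibiotics proximal array at 6 of the 8 probe sets, all but those of UBD and SAMHD1. Over the whole array this held for 4.7% of probe sets. These values are a description, since they share arrays with the contrasts that chose the genes.

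Control 88 was the lowest control distal array for 8 of the 8 probe sets, and control 89 (5 probe sets) or 83 (3) the highest. As a mean over the 6 genes, each scaled to unit spread over the 16 arrays, control distal arrays 83, 88, 89 and 92 lay at 1.18, -0.19, 1.31 and 1.04. The antibiotics distal arrays lay at -1.36 to -1.09, the antibiotics proximal arrays at -0.39 to 0.17 and the control proximal arrays at 0.21 to 0.86. Control distal 88 thus lay within the range of treated proximal tissue. Its distal piece carried FABP6 at 10.17, above controls 89 and 92 (7.32 and 6.64). It also carried APOA4, an apolipoprotein of the proximal intestine, at 12.28, the highest of the 8 distal arrays and above its own proximal piece (11.67). In control 83 APOA4 was likewise higher distally (11.62) than proximally (10.78). The control means of APOA4 lay close together (11.12 distal, 11.43 proximal), although over both treatments it was lower distally by limma (-1.66, adjusted p = 0.0125). Of its marker list, CCK was lower distally in that comparison (-1.24, adjusted p = 0.0734) and GCG was higher (4.35, adjusted p = 0.000105). Where along the intestine these pieces were taken was not tested. Since control distal 88 was the lowest control at all 8 probe sets, leaving it out had to enlarge the distal differences. They were then -5.70 and -6.80 for the brightest and middle GBP1 probe sets, -6.42 for GBP2 and -6.91 for UBD. For IRF1, SAMHD1 and FAM26F they were -2.50, -2.52 and -3.56.

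The other genes of the interferon-gamma pathway were examined from 5 lists with 102 genes that are not among the 6 above, and these were tested. The lists too were chosen with earlier results of these data known, so their counts and calls are not independent of these arrays. Of them 59 had a probe set annotated here and 41 passed the filter. In distal tissue 37 of the 41 had lower means with antibiotics (48.3% of all 4684 genes had), with a median difference of -0.90 (0.02 over all genes). By limma 6 fell and 0 rose past an adjusted p of 0.05 over all probe sets. Of all genes 1.45% were lower and 1.13% higher past it. In proximal tissue 28 had lower means (56.2% of all genes), the median was -0.42 (-0.06), and 0 passed, against 0.256% of all genes. For the difference between the segments' treatment differences 0 passed against 0.213% of all genes, with a median of -0.60 (0.09).

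The ligand itself was near the limit of the array. IFNG exceeded the filter level on 1 of 16 arrays, control distal 83, at 6.35, and lay within 0.1 of the lowest value (2.14) on the other 15. That array was the highest control distal array for 3 of the 8 probe sets, and control distal 89, with IFNG at 2.14, for the other 5. Of the cytokines that induce interferon-gamma, IL15 had a distal difference of -1.90 (SE 0.71, adjusted p = 0.192) and IL18 of -1.11 (SE 0.59, adjusted p = 0.393).

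Among 8 tested receptor and signalling genes 7 had lower distal means with antibiotics, and JAK2 passed. JAK2, one of the receptor's kinases, lay at 7.33, 6.98, 7.52 and 7.41 on the antibiotics distal arrays and at 8.94, 8.05, 8.62 and 9.01 on the control distal arrays, without overlap. It fell by 1.34 (SE 0.28, adjusted p = 0.0197) at 1 of its 2 tested probe sets. The call was lost without antibiotics distal array 85 or 86 or control distal array 83 or 92 (adjusted p = 0.0567, 0.076, 0.0714 and 0.0872). JAK1, the other kinase, gave 0.08 (SE 0.41, adjusted p = 0.954). The receptor chain IFNGR1 lay at 10.69 to 10.88 in treated and at 11.89, 10.79, 11.74 and 12.21 in control distal tissue, where control 88 again lay with the treated arrays (difference -0.88, SE 0.31, adjusted p = 0.163). No probe set annotated with IFNGR2 was found here.

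Of 5 other IRF genes 4 had lower distal means and 0 passed. IRF8, a factor of myeloid cells, gave -1.56 (SE 0.50, adjusted p = 0.127) and IRF7, of the type I response, -0.07 (SE 0.50, adjusted p = 0.968). The only other interferon-inducible GTPase tested was MX1, which did not pass. It gave -0.43 with a wide error (SE 1.12, adjusted p = 0.901, control distal arrays from 5.74 to 10.68).

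Of 25 other targets 23 had lower distal means with antibiotics and 5 fell past the threshold. TAP1, a subunit of the transporter that supplies peptides to MHC class I, lay at 7.63, 7.01, 8.16 and 8.31 in treated distal tissue and at 11.00, 8.87, 10.97 and 11.10 in controls. Its values did not overlap, control 88 was the lowest control, and it fell by 2.71 (SE 0.50, adjusted p = 0.00981). PSMB8, a catalytic subunit of the immunoproteasome, was dim (3.56 to 4.10 in treated, 5.05 to 5.78 in control distal tissue) and fell at least 1.27-fold (adjusted p = 0.000896). Both calls held with each of the 16 arrays left out in turn.

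The other 3 calls were less firm. C1S, a protease of the classical complement pathway, fell by 1.78 (SE 0.41, adjusted p = 0.0346), from 11.00, 11.38, 11.69 and 12.18 in controls to 10.21, 9.95, 10.27 and 8.71. The call was lost without antibiotics distal array 85, 86 or 95 or control distal array 89 or 92 (adjusted p = 0.058, 0.0791, 0.105, 0.076 and 0.13). The exonuclease ISG20 fell by 2.23 (SE 0.54, adjusted p = 0.0428), from 8.82, 6.95, 8.18 and 9.28 to 6.48, 5.65, 5.50 and 6.68. It did not pass without any 1 of the distal arrays other than control 88, nor without antibiotics proximal array 95 or control proximal array 83 (adjusted p = 0.0534 to 0.153). SERPING1, the inhibitor of C1S, fell by 1.69 (SE 0.42, adjusted p = 0.0489). It passed in only 3 of the 16 fits with 1 array left out, those without antibiotics proximal array 86 or control proximal array 89 or 92, and reached an adjusted p of 0.167 without control distal array 92.

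Several classical targets did not pass in distal tissue. CXCL9, a T cell chemoattractant, gave -1.41 with a wide error (SE 1.40, adjusted p = 0.687; control distal arrays from 3.52 to 11.53). SLA-DRA, an MHC class II chain, gave -1.84 (SE 0.61, adjusted p = 0.143), and B2M, the light chain of MHC class I, gave 0.11 (SE 0.16, adjusted p = 0.801). In the comparison of segments over both treatments IL18 (-1.67, adjusted p = 0.0275) and PSMB8 (-0.71, adjusted p = 0.00703) were lower in distal tissue. LAP3, an aminopeptidase, was higher there (1.18, adjusted p = 0.0130) at 1 of its 2 tested probe sets. Of all genes 2.50% were lower and 3.52% higher. IL18 did not pass without antibiotics distal array 85 or 87, control distal array 92, antibiotics proximal array 95 or 98, or control proximal array 83 (adjusted p = 0.0508 to 0.0591).

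**Figure D4:**
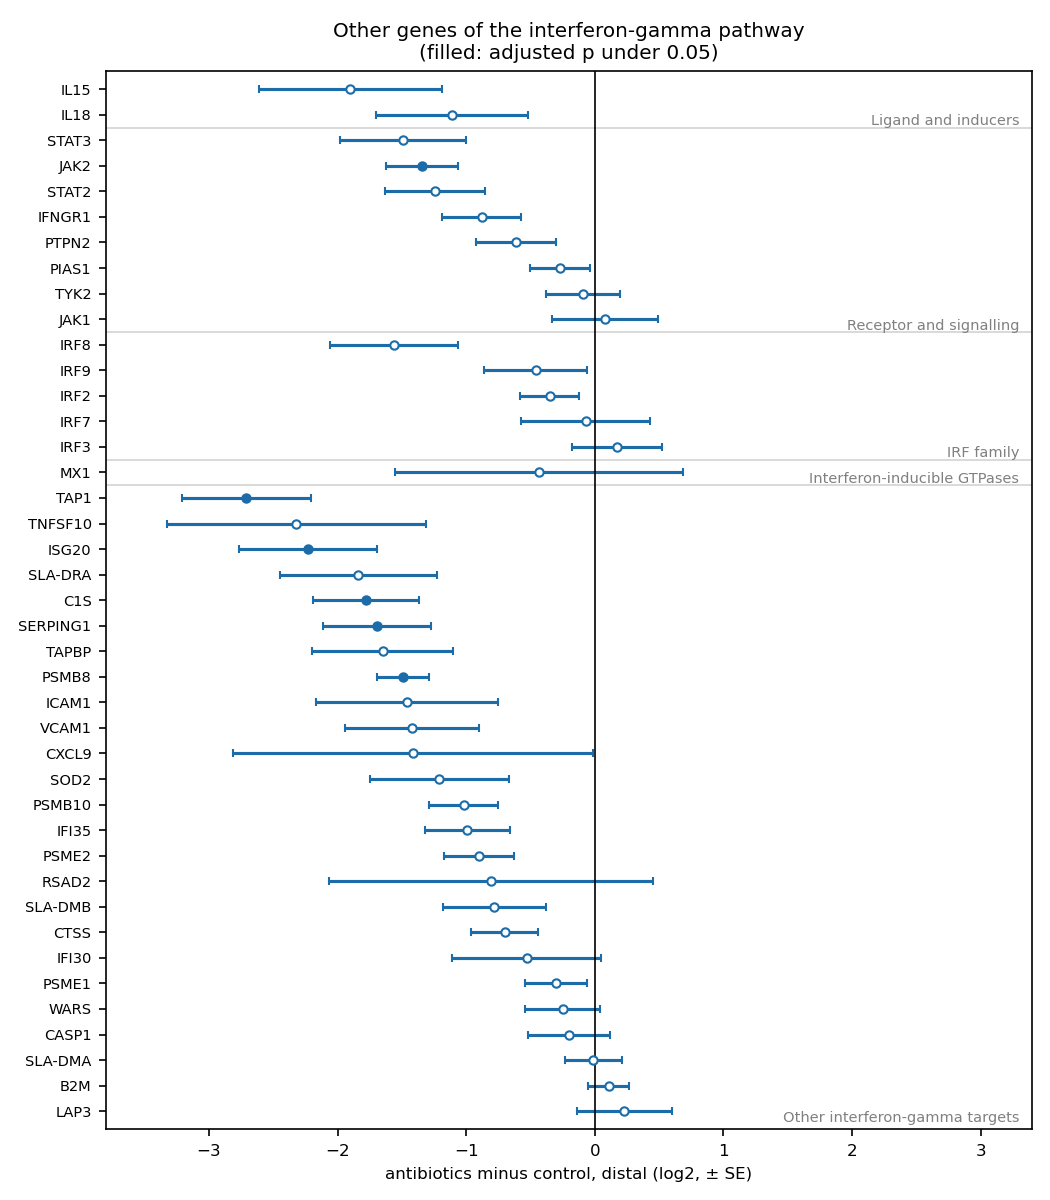
Antibiotics minus control difference in distal tissue (horizontal axis, log2, ± 1 SE from the limma fit) of the 41 tested genes of the interferon-gamma pathway other than the 6 described, grouped by list; filled points passed an adjusted p of 0.05. All but 4 points lie below 0, and the 6 filled ones are JAK2, TAP1, ISG20, C1S, SERPING1 and PSMB8.

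Several myeloid and shared leukocyte markers were lower in the same groups, beside 1.45% of all genes lower in distal tissue by limma. The macrophage list (5 of 12 genes measured) averaged 5.62 to 6.59 on antibiotics distal, 8.25 to 8.62 on control distal, 6.28 to 8.20 on antibiotics proximal and 8.05 to 8.99 on control proximal arrays, and 2 of the 5 (CD163 and C1QC) fell in distal tissue. The neutrophil list (2 of 9 measured, S100A9 and NCF1) averaged 3.06 to 3.33, 5.71 to 8.31, 3.17 to 4.52 and 6.10 to 7.91 in the same order of groups. Both fell in distal tissue and S100A9 in proximal tissue too. The list of markers shared by leukocytes (7 of 8 measured) averaged 5.41 to 6.77, 7.15 to 7.75, 6.25 to 7.18 and 6.68 to 8.66, and 3 of its genes fell in distal tissue, while RAC2 gave -0.08. In distal tissue the treated arrays lay below the control arrays in all 3 lists, as they did for the 6 genes. This was not particular to leukocyte lists, since the enterocyte list separated too (12.78 to 13.14 against 13.22 to 13.89). The part of any of these cells in the result was not tested. The B and plasma cell list, of which only JCHAIN was measured, overlapped (5.29 to 7.76 in treated and 5.26 to 8.01 in control distal tissue, difference 0.01, adjusted p = 0.997).

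Most markers of T and NK cells lay below the filter level. Of 18 T and NK cell markers only GZMH and KLRK1 were measured, and 0 of these passed (limma distal differences -0.55 and -0.87, adjusted p = 0.678 and 0.446; 0 of 2 at an adjusted p of 0.10 either). The other 9 with a probe set were too dim to test, and CD2 alone of these exceeded log2 5, reaching 5.22 in control proximal tissue. CD3G lay at 2.14 to 2.66 on antibiotics distal and at 2.71 to 4.49 on control distal arrays, and LCK at 2.14 on every treated array and at up to 3.44 on control distal arrays. CD3D and CD3E did not exceed 3.11 and 2.32 on any array, and CD4 and PRF1 did not exceed 2.15 and 2.14. The enterocyte list averaged 12.78 to 13.14 on antibiotics distal, 13.22 to 13.89 on control distal, 13.62 to 14.47 on antibiotics proximal and 13.19 to 14.04 on control proximal arrays, with 0 of 9 genes past the threshold for treatment (8 lower means in distal tissue). The endothelial list averaged 6.60 to 7.42, 7.04 to 7.98, 6.40 to 8.22 and 6.43 to 7.74, with 0 of 4 past it.

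Among 4684 genes those that ran most closely with the mean of the 6 over the 16 arrays were TAP1 (Pearson r = 0.935), DMBT1 (0.925), ALOX5AP (0.906), IFNAR2 (0.895) and PPA1 (0.895). After removing each group's mean, so that only differences between animals of one group remain, the closest were CXCL9 (r = 0.869), TAP1 (0.863), S100A9 (0.799), SNX10 (0.771) and CREM (0.766). TAP1 is in both sets. These are descriptions over 16 arrays that share animals and a normalization, and the first set holds the treatment difference on which the 6 genes were chosen.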

How the data were processed

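Total RNA of proximal and distal small intestine was hybridised to Affymetrix porcine arrays. The authors deposited log2 expression values, 1 per probe set and array, with a floor at 2.14, and 39.7% of all values lay under 2.5, so a difference that reaches the floor is compressed. The tools named per the submitters' processing notes are GCOS 1.2, GCRMA and limma; in which order and with which settings is not given in the sources used here. No further normalization was applied. Arrays were grouped by the treatment and segment in their labels, with 0 columns unassigned. No 2 arrays held identical values (0 of 120 pairs). The arrays' number limits the precision.

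After leaving out 124 control probe sets, those above log2 5 on at least 4 of 16 arrays were tested: 11538. Of the 23999 others 10069 named 1 gene, 198 named several and 13732 named none, and only the first kind was given a name. A gene outside the 6 is represented by its probe set with the highest mean. Group means of all 16 arrays were fitted with limma 3.58.1 (lmFit, eBayes, two-sided) in R 4.3.3, and the Benjamini-Hochberg adjustment ran over every tested probe set (threshold 0.05). Where no array of the lower group exceeded log2 5, the fold is a bound ("at least"): the higher mean over that level. The scripts were tested on simulated data. This fit treated the 16 arrays as independent, although 7 of the 9 piglets gave both segments. Its p-values measure the spread between arrays within the groups of this study.

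The 6 genes and the lists were chosen with earlier results of these data known. Named are all probe sets of the 6 genes, list genes past the threshold, genes of the receptor pathway (IFNG, IFNGR1, IFNGR2, JAK1 and JAK2; another is not reported here), and the 5 genes closest to the mean of the 6 by each of 2 correlations; further list genes (IL15, IRF7, IRF8, MX1, CXCL9, SLA-DRA, B2M) and the lists' markers were named after their values were seen. Segments were paired by the number that the sample names carry, taken as the piglet's: residuals of the segments of the 7 animals correlated at 0.0293 to 0.526, above 0.1 for 5. All 6 symbols were matched in the RefSeq table of Sscrofa11.1, used for names and neighbours alone. Sequences of promoters and proteins were not analysed here. Alternatives were other filters, normalizations, array weights, an RNA integrity covariate, an adjusted p of 0.10, the animal as a block, subsets of arrays, the mean of a gene's probe sets and each array left out. Plots were made in Python 3.11.15 with matplotlib 3.10.9.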

Additional observations from a re-analysis of the deposited data

Results flagged for a closer look

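At the dimmest GBP1 probe set the control distal array of piglet 88 lay apart from the other controls: its gap to the nearest, divided by the range of the group, was 0.902. It was 1 of 32 groups of 4 arrays examined, and chance flags about 1 in 20. The same array was the lowest control distal array at all 8 probe sets of the 6 genes.

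At 2 of the 3 GBP1 probe sets the difference between segments had opposite directions in the 2 groups of piglets. At its brightest probe set all 4 controls with both segments were higher distally and all 3 treated piglets lower, and the distal minus the proximal treatment difference was -5.09 (log2). At the middle one by brightness the same held, with -6.25. At the dimmest it did not hold, since control 88 was lower distally (-1.25). The difference was not tested, because GBP1 was chosen on the contrasts it is made of.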

How the results depend on the processing

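The number of other pathway genes past the threshold in distal tissue, 6, was 19 with array quality weights, 3 with no filter and 3 when only the 7 animals with both segments were fitted. With 1 array left out it was 2 to 12, the highest without control distal array 88 and the lowest without antibiotics distal array 85 or 86 or control distal array 92, and it was 3 without antibiotics distal array 95 or control distal array 83 or 89. In proximal tissue 0 became 3 with array quality weights and 1 at an adjusted p of 0.10, and 0 to 2 with 1 array left out (2 without control proximal array 88). Between segments 3 became 5 with quantile normalization, 6 with array quality weights, 6 at an adjusted p of 0.10, and 2 to 5 with 1 array left out (5 without control distal array 83). For the difference of the treatment differences it was 0 in every fit.

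Of the 8 probe sets of the 6 genes 0 passed between segments, 2 with array quality weights (GBP1, adjusted p = 0.0276 and 0.00791), 2 at an adjusted p of 0.10, 1 without control distal arrays 83 and 88 (GBP2, -1.44, adjusted p = 0.0246) and 0 to 1 with 1 array left out. Where arrays are weighted or left out, this comparison is not independent of the treatment differences that chose the genes. With the animal as a random replicate block 1 passed, and as a fixed effect 0; the pairing changed no other call named here between segments. The difference of UBD between segments turned to 0.03 with array quality weights and that of FAM26F to 0.06 without control distal arrays 83 and 88. The median treatment difference of the 8 probe sets stayed between -4.83 and -3.90 in distal and between -0.32 and 0.15 in proximal tissue. Named distal calls lost were C1S, ISG20 and SERPING1 with no filter (adjusted p = 0.107, 0.137 and 0.139) or with the 7 animals alone (0.0578, 0.0593 and 0.101), and ISG20 and SERPING1 with the RNA integrity covariate (0.0565 and 0.0636). Between segments IL18 was lost in the same 3 fits (0.108, 0.0855 and 0.105) and LAP3 with the mean of its probe sets (0.0806). The causes were not tested. Signals near the floor limit IFNG, PSMB8 and the T cell markers. Comparisons of promoters and proteins were not run.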
